A study of Homo sapiens with 4 samples.

Results

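The 40 genes described here make up the machinery that folds, sorts and disposes of proteins in the endoplasmic reticulum (ER). They were chosen by gene name, with no threshold on their values but with earlier results of these data known. All 40 were found among the 31319 genes of the deposited tables. They were sorted into 9 lumenal chaperones and their partners, 2 lectin chaperones, 10 disulfide isomerases and oxidases, 10 genes of ER-associated degradation (ERAD), 4 stress sensors and transcription factors, and 5 genes of translocation and transport. RNA was measured in T24 and UM-UC-3, which are established human bladder cancer cell lines, after 48 h in 140 µM OICR-9429 or in the vehicle DMSO. In the paper's viability assay, doses below 140 µM already lowered the viability of both lines at 48 h. What part of the RNA changes goes with lower viability was not tested. OICR-9429 is a small molecule that keeps WDR5 from binding MLL1, a methyltransferase of histone H3 lysine 4. The 4 libraries were T24 with OICR-9429, T24 with DMSO, UM-UC-3 with OICR-9429 and UM-UC-3 with DMSO, 1 of each. The paper states that T24 was grown in RPMI medium and UM-UC-3 in DMEM. No genotype was altered, and the column headings of both treated libraries contain 125 beside the line's name, and what it stands for is not stated.

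Proteins bound for the cell surface or for secretion enter the ER through the Sec61 channel, and chaperones and disulfide isomerases of the lumen help them to fold. Chains that fail to fold are recognised, drawn back through the membrane and passed to the proteasome, which is the task of ERAD. When unfolded chains build up, sensors in the ER membrane start the unfolded protein response, in which the transcription factors ATF6 and XBP1 raise the genes of folding and ERAD, while the kinase PERK slows translation and brings about the synthesis of ATF4.

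Values are FPKM, the fragments of a gene scaled to the length of its exons and to the total of the library. The library totals worked back from these values were 28209432 to 29335051 reads, and 11387 to 12115 genes reached 1 FPKM. Of 11 urothelial and epithelial markers listed, 2 or 3 reached 1 FPKM in each library, KRT8 and KRT18 in all 4, while CDH1 was at or below 0.0222 FPKM. Of 4 mesenchymal markers, 3 or 4 reached it. The leukocyte, endothelial and erythroid markers listed stayed below 1 FPKM in every library. VIM stood at 81.1 and 40.4 FPKM in T24 with OICR-9429 and with DMSO, and at 79.3 and 183 FPKM in UM-UC-3 with OICR-9429 and with DMSO. As in any bulk measurement, fewer cells of a kind and less RNA per cell cannot be told apart.

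In the ER genes, 140 µM OICR-9429 went with a mixed pattern in T24 and with mostly higher levels in UM-UC-3. In UM-UC-3, the chaperone HSPA5, the ERAD gene HERPUD1, the transcription factor XBP1 and the retrieval receptor KDELR3 were 3.91-fold to 9.29-fold higher with OICR-9429 than with DMSO, whereas PDIA4, PDIA6, PDIA3, HSP90B1, MANF and CALR were more than 2-fold lower. In T24, HSPA5 was at nearly the same level in both libraries, and PDIA4, SDF2L1, MANF and HSP90B1 were lower with OICR-9429. With 1 library per line and condition, the differences within a line have no replicate check. A member was called if FPKM + 0.5 differed at least 2-fold and its level was at least 1 FPKM in either library of the line, which is a rule of size and no test. Adding 0.5 understates the change of genes of low level: the log2 ratio of reads per total, without the 0.5, was 1.01 for DNAJB9 in T24 and -1.07, 1.04 and 1.01 for CRELD2, EDEM3 and KDELR2 in UM-UC-3, which were not called.

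Of the 38 members at this level, 3 (7.89%) were called higher in T24, where 6.93% of all genes at that level were, and 5 (13.2%) were called lower, where 13.5% of all genes were. Both shares in T24 were near those of all genes. Without scaling of the libraries, 876 of all genes were called higher in T24 and 1709 lower. With median-ratio scaling, 4 members were called higher and 4 lower in T24, and over all genes 1084 and 1466. With upper-quartile scaling, 4 members were called higher and 3 lower, and over all genes 1443 and 1201. In UM-UC-3, 17 members (44.7%) were called higher, beside 14.0% of all genes, and 6 members (15.8%) were called lower, beside 12.1% of all genes. The share called higher in UM-UC-3 was thus the one that stood furthest from its background. Since the members were chosen with earlier results of these data known, this contrast is a description and no test. Called higher in both lines were DNAJC3, HERPUD1 and ERN1 (7.89%, beside 2.67% of all genes), and called lower in both were HSP90B1, MANF and PDIA4 (7.89%, beside 6.32%). No member was called in opposite directions, where 0.438% of all genes were. In all, 25 members were called in at least 1 line and 15 in neither. TXNDC5 and DERL3 were the members below the level in every library.

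The median log2 fold change of the 38 members came to 0.04 in T24, where that of all genes was -0.15, and to 0.90 in UM-UC-3, where that of all genes was 0.09. By role, the UM-UC-3 medians ran from -0.72 in the lectin chaperones over 0.09 in the lumenal chaperones and 0.27 in the isomerases and oxidases to 1.21 in translocation and transport, 1.29 in ERAD and 1.87 in the sensors and transcription factors. The T24 medians in the same order were 0.13, -0.56, -0.16, 0.31, 0.22 and 0.26. The plot of changes by role shows that members of most roles spread to both sides of 0.

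**Figure D1:**
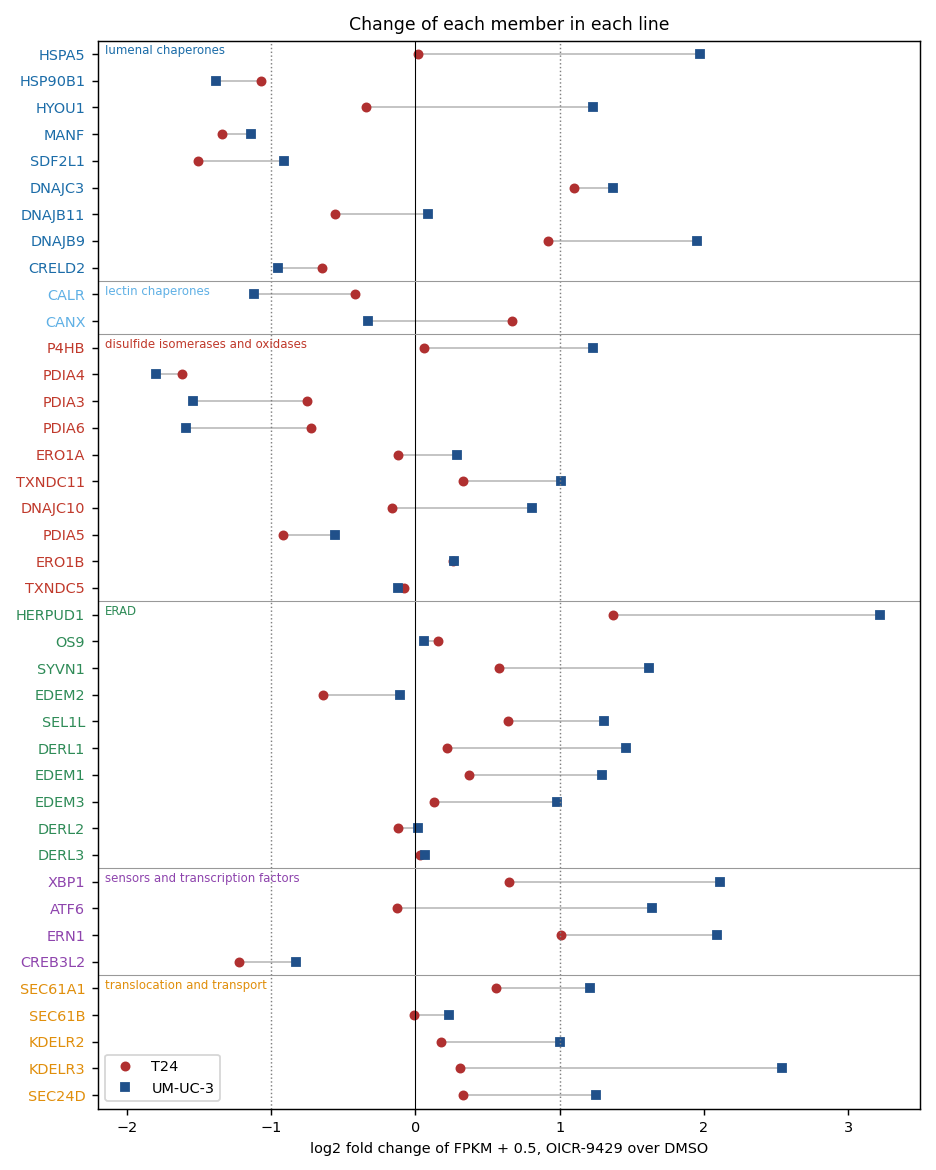
Log2 fold change of FPKM + 0.5, OICR-9429 over DMSO, of the 40 members in T24 (circles) and UM-UC-3 (squares), by role; each point is 1 library against 1 library, and dotted lines mark a 2-fold change. HERPUD1 reached 1.37 (T24) and 3.22 (UM-UC-3), whereas PDIA4 was at -1.62 (T24) and -1.80 (UM-UC-3).

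A model over both lines (limma with cell line as a block, Benjamini-Hochberg adjustment over 12584 genes) had the 2 lines as its only replication. Of the 38 members fitted, 1 fell, PDIA4, beside 3.11% of all genes. None rose past the adjusted threshold, beside 0.811% of all genes. At an unadjusted p under 0.05, limma counted 10 members higher with OICR-9429 (26.3%, beside 9.37% of all genes) and 9 lower (23.7%, beside 13.2% of all genes). The adjusted p-values of the next members were 0.052 for HSP90B1 and MANF and 0.055 for DNAJC3 and HERPUD1, just beyond the threshold of 0.05. The number of members past it ran from 0 to 11 with the scaling and filter used. The counts over all genes moved with these settings as well.

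Changes differed in size between the lines. The change in T24 lay below that in UM-UC-3 for 30 of the 38 members (78.9%), as for 61.5% of all genes. It lay at least 1 log2 unit below for 11 members (28.9%, beside 13.4% of all genes) and at least 1 log2 unit above for 0 members (beside 5.17% of all genes). The median difference, T24 minus UM-UC-3, was -0.65 over the members and -0.19 over all genes. It was widest for KDELR3 at -2.23, HSPA5 at -1.95, HERPUD1 at -1.84, ATF6 at -1.77, HYOU1 at -1.56 and XBP1 at -1.46. These differences were not tested, since 1 library per line and condition leaves no error for them. The lines were also grown in different media, so line and medium cannot be told apart in any comparison between them. Across the 38 members the changes of the lines had a Pearson's r of 0.83 and a Spearman's rho of 0.79, and across 11178 genes 0.65 and 0.56; the genes share libraries and are not independent, so these are descriptions.

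**Figure D2:**
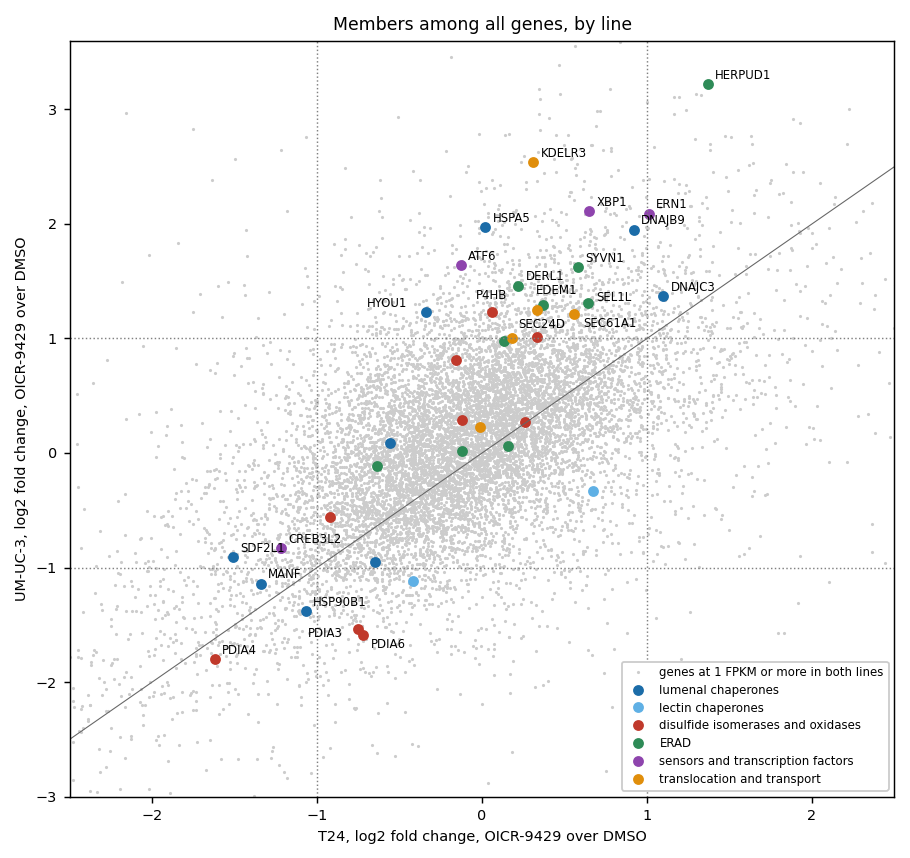
Log2 fold changes of FPKM + 0.5 in T24 (horizontal) and UM-UC-3 (vertical), OICR-9429 over DMSO, for the 38 members at 1 FPKM or more (coloured by role) and all such genes (grey; some lie outside the axes). Most members lie above the line of equal change, KDELR3 and HSPA5 furthest from it.

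Fewer members differed 2-fold between the lines in DMSO than in OICR-9429. In OICR-9429, 2 of 38 members were at least 2-fold higher in T24 than in UM-UC-3 (5.26%, beside 12.5% of all genes) and 10 were at least 2-fold lower (26.3%, beside 21.2%). In DMSO, 5 members were at least 2-fold higher in T24 (13.2%, beside 14.9% of all genes) and 1, SEC61A1, was lower (2.63%, beside 13.5%). ERO1B, an oxidase that passes oxidising power to the isomerases, kept the same gap in both conditions, with log2 ratios of T24 over UM-UC-3 of 2.01 in OICR-9429 and 2.02 in DMSO. XBP1 had -0.09 in OICR-9429 and 1.37 in DMSO, and HSPA5 -1.79 and 0.16.

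The plot of levels sets out the FPKM of every member in the 4 libraries. Summed over the 40 members, T24 had 1684.7 FPKM with OICR-9429 and 1924.7 with DMSO, and UM-UC-3 had 2749.3 with OICR-9429 and 2030.9 with DMSO. HSPA5 alone held 15.9% of this sum in T24 with OICR-9429 and 13.7% in T24 with DMSO. In UM-UC-3, HSPA5 held 33.7% with OICR-9429 and 11.6% with DMSO. Other members moved the UM-UC-3 sum in both directions. SEC61A1 had 240 FPKM there with OICR-9429 and 103 FPKM with DMSO, and CALR had 195 FPKM with OICR-9429 and 424 FPKM with DMSO.

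**Figure D3:**
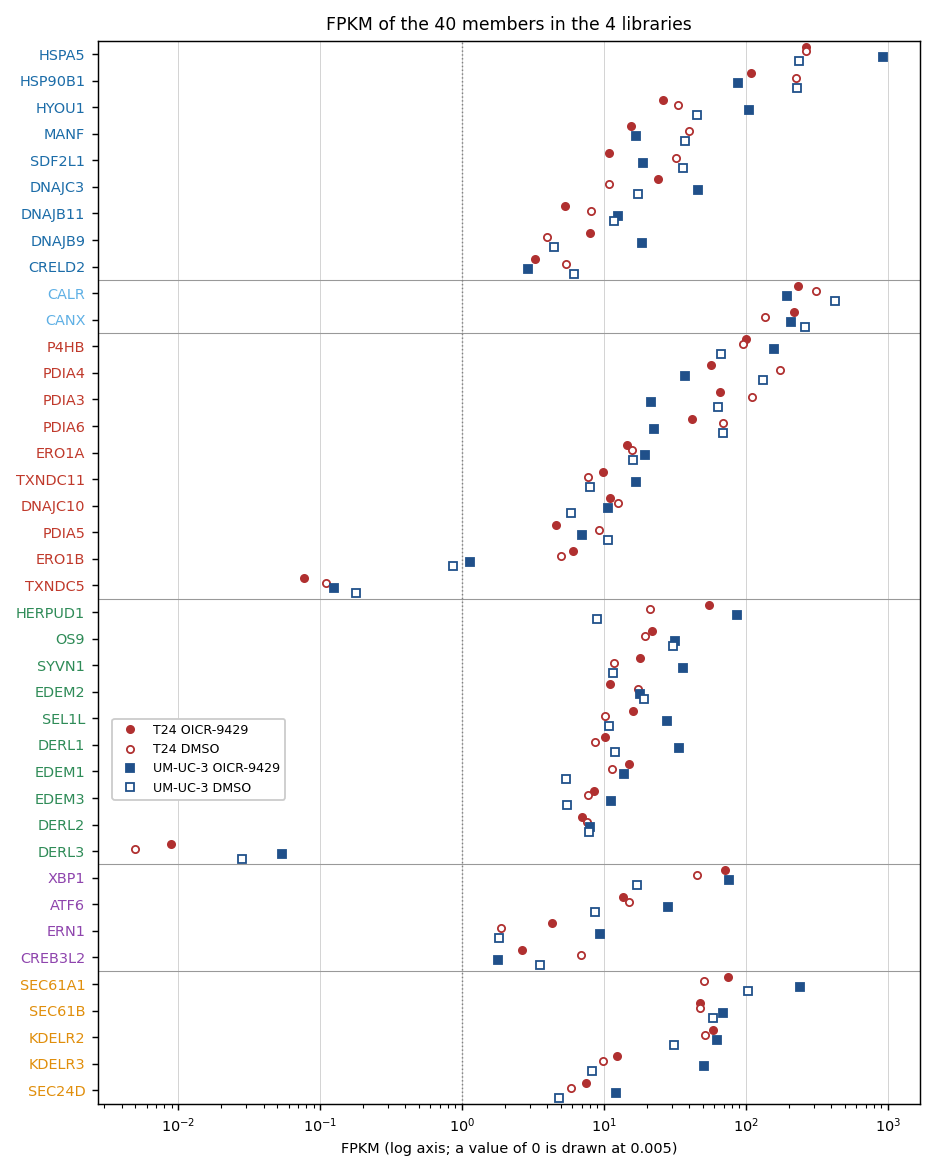
FPKM of the 40 members in each library on a log axis, grouped by role; OICR-9429 libraries are drawn above DMSO libraries, and DERL3 in T24 with DMSO, listed at 0, is drawn at the left edge. HSPA5 in UM-UC-3 with OICR-9429, at 925 FPKM, is the highest value.

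The promoters of the members were searched for the sequence elements that ATF6 and XBP1 are known to bind. These factors are known to raise genes of folding and ERAD, so finding their elements before members is a description and no independent test. Of the 40 members, 35 had a window in the RefSeq promoter table (GRCh38.p14), which covers 250 bases before to 50 bases after a start site. The ER stress response element (ERSE) was searched as CCAAT, any 9 bases and CCACG, and ERSE-II as ATTGG, any base and CCACG, both on either strand. ERSE was present in 0.0769% of the 35116 windows of all genes and in those of 8 members, CALR, CANX, CRELD2, ERO1B, HSP90B1, HSPA5, PDIA6 and XBP1. ERSE-II was present in 0.0541% of all windows and in those of 3 members, HERPUD1, HYOU1 and SDF2L1. HSP90B1 held ERSE at 2 places and HYOU1 held ERSE-II at 2 places. Of 143 other ER genes with a window, 1 held either element, ALG12, which lies beside CRELD2.

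The windows of 4 members that carry an element and were called higher in UM-UC-3 are printed 5′ to 3′ on the strand of the gene, with the element in capitals, to show how alike the elements are. They lie at chr9:125241294-125241593 on the minus strand (HSPA5), chr11:119057156-119057455 on the minus strand (HYOU1), chr16:56931892-56932191 on the plus strand (HERPUD1) and chr22:28800520-28800819 on the minus strand (XBP1). In HYOU1 both elements read on the opposite strand.
HSPA5: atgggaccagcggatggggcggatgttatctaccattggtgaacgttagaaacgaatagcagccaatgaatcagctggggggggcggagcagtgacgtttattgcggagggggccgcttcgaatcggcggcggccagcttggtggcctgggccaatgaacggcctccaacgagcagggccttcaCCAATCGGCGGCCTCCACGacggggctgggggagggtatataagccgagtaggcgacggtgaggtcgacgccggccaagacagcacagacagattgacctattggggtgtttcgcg
HYOU1: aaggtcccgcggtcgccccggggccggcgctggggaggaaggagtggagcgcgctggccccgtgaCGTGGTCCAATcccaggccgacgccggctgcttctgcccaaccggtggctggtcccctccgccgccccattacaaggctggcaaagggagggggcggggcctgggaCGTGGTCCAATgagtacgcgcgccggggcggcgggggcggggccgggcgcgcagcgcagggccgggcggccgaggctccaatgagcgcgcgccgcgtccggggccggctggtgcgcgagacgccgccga
HERPUD1: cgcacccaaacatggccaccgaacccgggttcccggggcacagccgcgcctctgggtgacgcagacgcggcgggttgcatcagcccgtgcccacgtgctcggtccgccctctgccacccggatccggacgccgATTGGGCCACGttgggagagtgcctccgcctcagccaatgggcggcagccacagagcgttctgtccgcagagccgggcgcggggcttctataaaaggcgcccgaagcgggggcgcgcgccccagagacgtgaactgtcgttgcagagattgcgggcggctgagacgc
XBP1: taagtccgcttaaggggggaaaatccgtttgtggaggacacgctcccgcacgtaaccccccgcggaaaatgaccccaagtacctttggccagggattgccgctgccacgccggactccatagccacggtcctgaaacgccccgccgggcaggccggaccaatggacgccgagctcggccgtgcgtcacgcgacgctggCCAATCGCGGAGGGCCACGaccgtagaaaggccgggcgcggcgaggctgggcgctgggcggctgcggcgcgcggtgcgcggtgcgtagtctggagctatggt
Counted from the start site, the element spanned -66 to -48 in HSPA5, -52 to -34 in XBP1 and -117 to -107 in HERPUD1, and those of HYOU1 spanned -185 to -175 and -79 to -69. The window of HERPUD1 also held the ATF4 element TTGCATCA at -176 to -169. No other member's window held it, and 0.866% of all windows did. The core of the unfolded protein response element, TGACGTGG, was in the windows of 5 members, DNAJC10, HYOU1, KDELR3, TXNDC11 and TXNDC5, and in 0.729% of all windows. In HYOU1 it overlapped the upstream ERSE-II.

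The same element stands before members that were lower with OICR-9429. The windows of 3 members called lower in UM-UC-3 follow, with the element again in capitals. They lie at chr12:103930160-103930459 on the plus strand (HSP90B1), chr19:12938359-12938658 on the plus strand (CALR) and chr2:10812736-10813035 on the minus strand (PDIA6). In CALR, and at the second place in HSP90B1, the element reads on the opposite strand.
HSP90B1: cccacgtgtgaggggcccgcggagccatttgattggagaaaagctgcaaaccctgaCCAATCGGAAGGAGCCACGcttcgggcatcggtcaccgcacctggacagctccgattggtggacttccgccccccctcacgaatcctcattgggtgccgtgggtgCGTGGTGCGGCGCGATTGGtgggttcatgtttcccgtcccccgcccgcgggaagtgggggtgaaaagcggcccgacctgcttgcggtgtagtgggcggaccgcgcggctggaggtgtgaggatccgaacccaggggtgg
CALR: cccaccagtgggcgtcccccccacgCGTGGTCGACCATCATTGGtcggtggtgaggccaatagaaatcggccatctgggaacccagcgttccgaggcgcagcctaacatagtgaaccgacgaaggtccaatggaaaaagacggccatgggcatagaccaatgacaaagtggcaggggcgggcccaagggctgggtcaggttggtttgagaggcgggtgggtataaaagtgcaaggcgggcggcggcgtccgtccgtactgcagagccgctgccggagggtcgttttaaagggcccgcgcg
PDIA6: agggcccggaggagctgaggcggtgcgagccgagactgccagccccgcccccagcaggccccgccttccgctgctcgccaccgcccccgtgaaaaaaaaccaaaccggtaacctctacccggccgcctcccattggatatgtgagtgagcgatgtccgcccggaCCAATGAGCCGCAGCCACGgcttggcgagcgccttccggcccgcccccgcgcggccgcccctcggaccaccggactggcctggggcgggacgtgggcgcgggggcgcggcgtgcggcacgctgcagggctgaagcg
Of the 11 members with ERSE or ERSE-II, 4 were called higher, 3 lower and 4 not called in UM-UC-3, and 1 was called higher, 2 lower and 8 not called in T24. Of the 24 members with a window and neither element, 11 were called higher, 2 lower and 11 not called in UM-UC-3, and 2 were called higher, 3 lower and 19 not called in T24. Of all genes, 14.0% were called higher and 12.1% lower in UM-UC-3, and 6.93% higher and 13.5% lower in T24. For members with ERSE or ERSE-II, the median log2 fold change was -0.34 (T24) or -0.33 (UM-UC-3). For those with neither, it was 0.02 (T24) or 0.90 (UM-UC-3). No FPKM minimum was applied to these medians, and those with neither include TXNDC5, which was below 1 FPKM. They also include members with the TGACGTGG core, DNAJC10, KDELR3, TXNDC11 and TXNDC5. Members that share the letters of an element thus had changes of either sign in the same library pair. A match describes letters in a window and is no record of binding.

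**Figure D4:**
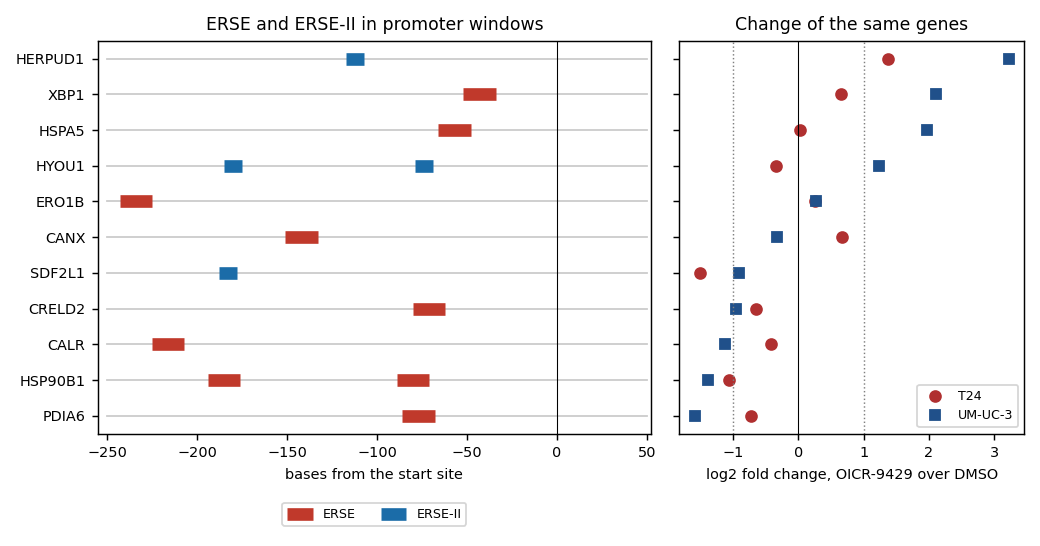
Distance from the start site (bases, horizontal) of each ERSE and ERSE-II in the promoter windows of the 11 members that hold one, with the log2 fold changes of these members in T24 and UM-UC-3; for CANX, 1 of its windows is drawn. HSPA5 holds the element at -66 to -48 and PDIA6 at -86 to -68, with log2 fold changes of 1.97 and -1.59 in UM-UC-3.

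Among the lumenal chaperones, HSPA5 (BiP), the Hsp70 of the ER that binds unfolded chains and holds the stress sensors inactive, was the most abundant. It stood at 267 FPKM in T24 with OICR-9429 and at 264 FPKM in T24 with DMSO, and at 925 FPKM in UM-UC-3 with OICR-9429 and 237 FPKM in UM-UC-3 with DMSO. Its log2 fold change in T24 was 0.02 (95% counting interval -0.01 to 0.04), and in UM-UC-3 it was 1.97 (1.95 to 1.99), or 3.91-fold. The level in UM-UC-3 with OICR-9429 was far above the other 3 libraries, which lay close together. Over both lines, limma gave a log2 fold change of 0.99 ± 0.47 (SE) with an adjusted p of 0.29.

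HSP90B1 (GRP94), the Hsp90 of the ER, moved the other way. It had 108 FPKM in T24 with OICR-9429 and 227 FPKM with DMSO, and 87.7 FPKM in UM-UC-3 with OICR-9429 and 229 FPKM with DMSO. Both treated libraries were below both DMSO libraries, and the log2 fold change was -1.07 for T24 (-0.96 with median-ratio and -0.80 with upper-quartile scaling, which end the call) and -1.38 for UM-UC-3 (limma adjusted p 0.052). The ratio of HSPA5 to HSP90B1 levels was 2.47 in T24 with OICR-9429 and 1.16 with DMSO, and 10.5 in UM-UC-3 with OICR-9429 and 1.03 with DMSO. These paired chaperones, near 1 to 1 in FPKM in both DMSO libraries, were thus unequal in both treated ones, and more so in UM-UC-3.

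HYOU1 (GRP170), an exchange factor that recharges HSPA5, had 26.2 FPKM in T24 with OICR-9429 and 33.2 FPKM with DMSO, and 106 FPKM in UM-UC-3 with OICR-9429 and 45.2 FPKM with DMSO. Like HSPA5, it was called higher in UM-UC-3 (log2 fold change 1.23) and not called in T24 (-0.34). The J-domain proteins stimulate HSPA5. DNAJC3 (p58IPK) had 23.9 FPKM in T24 with OICR-9429 and 10.9 FPKM with DMSO, and 45.8 FPKM in UM-UC-3 with OICR-9429 and 17.4 FPKM with DMSO, and was called higher in both lines (1.10 and 1.37). DNAJB9 (ERdj4), which also brings HSPA5 to the sensor IRE1, had 7.98 FPKM in T24 with OICR-9429 and 3.97 FPKM with DMSO, and 18.6 FPKM in UM-UC-3 with OICR-9429 and 4.45 FPKM with DMSO. Its change was called in UM-UC-3 (1.95) and was just under 2-fold in T24 (0.92). DNAJB11 (ERdj3), which hands unfolded chains to HSPA5 in the lumen, was called in neither line (-0.56 and 0.09), so the J-domain members did not move as one.

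SDF2L1, a partner of DNAJB11, had 10.9 FPKM in T24 with OICR-9429 and 32.1 FPKM with DMSO, and 18.9 FPKM in UM-UC-3 with OICR-9429 and 36.0 FPKM with DMSO. SDF2L1 was called lower in T24 (-1.51) and not called in UM-UC-3 (-0.91). MANF, a secreted factor that keeps HSPA5 bound to its substrates, had 15.5 FPKM in T24 with OICR-9429 and 39.9 FPKM with DMSO, and 16.8 FPKM in UM-UC-3 with OICR-9429 and 37.5 FPKM with DMSO. MANF was close to the same level in the lines under each condition, and was called lower in both (-1.34 and -1.14; limma adjusted p 0.052). CRELD2, a small protein that like MANF is induced in ER stress, was called in neither line (-0.65 for T24, -0.95 for UM-UC-3).

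The lectin chaperones hold chains that carry a trimmed sugar, CALR (calreticulin) in the lumen and CANX (calnexin) in the membrane. CALR had 233 FPKM in T24 with OICR-9429 and 312 FPKM with DMSO, and 195 FPKM in UM-UC-3 with OICR-9429 and 424 FPKM with DMSO. It was called lower in UM-UC-3 (log2 fold change -1.12) and not called in T24 (-0.42). CANX had 218 FPKM in T24 with OICR-9429 and 137 FPKM with DMSO, and 208 FPKM in UM-UC-3 with OICR-9429 and 262 FPKM with DMSO. Its changes had opposite signs, 0.67 for T24 and -0.33 for UM-UC-3, and neither was called. The ratio of CANX to CALR levels was nonetheless higher with OICR-9429 in both lines, at 0.936 with OICR-9429 and 0.439 with DMSO in T24 and at 1.07 with OICR-9429 and 0.618 with DMSO in UM-UC-3.

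The disulfide isomerases make and reshuffle the bonds between cysteines of a folding chain. PDIA4 (ERp72) had 56.5 FPKM (95% Poisson interval 55.0 to 58.1) in T24 with OICR-9429 and 175 FPKM (172 to 178) with DMSO, and 37.5 FPKM (36.3 to 38.7) in UM-UC-3 with OICR-9429 and 132 FPKM (130 to 134) with DMSO. It was 3.08-fold lower in T24 and 3.49-fold lower in UM-UC-3, and both treated libraries lay well under both DMSO libraries. PDIA4 fell over both lines in limma by 1.71 ± 0.22 (SE) on the log2 scale with an adjusted p of 0.018. Over the alternatives its limma adjusted p was 0.011 to 0.37, and it missed the threshold without a trend (0.051), without the cell line block (0.29) and with no FPKM minimum (0.37). PDIA3 (ERp57), which works with the lectin chaperones, had 65.8 FPKM in T24 with OICR-9429 and 111 FPKM with DMSO, and 21.4 FPKM in UM-UC-3 with OICR-9429 and 63.2 FPKM with DMSO. PDIA6 (P5) had 41.6 FPKM in T24 with OICR-9429 and 68.8 FPKM with DMSO, and 22.4 FPKM in UM-UC-3 with OICR-9429 and 68.6 FPKM with DMSO. PDIA3 and PDIA6 were called lower in UM-UC-3 (-1.54 and -1.59) and had changes of the same sign under 2-fold in T24 (-0.75 and -0.72). Of their exon bases, 18.9% in PDIA3 and 25.2% in PDIA6 overlap an antisense gene, and whether counting used strand is not given.

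P4HB (PDI), the founding isomerase and a subunit of collagen prolyl hydroxylase, did not share this direction. It had 99.6 FPKM in T24 with OICR-9429 and 95.8 FPKM with DMSO, and 158 FPKM in UM-UC-3 with OICR-9429 and 67.1 FPKM with DMSO. P4HB was called higher in UM-UC-3 (1.23) and was near no change in T24 (0.06). The ratio of P4HB to PDIA4 levels was 1.76 in T24 with OICR-9429 and 0.548 with DMSO, and 4.22 in UM-UC-3 with OICR-9429 and 0.508 with DMSO. The order of the 2 isomerases was thus reversed in both lines, PDIA4 being the more abundant in DMSO and P4HB in OICR-9429.

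TXNDC11, a thioredoxin-domain protein of the ER membrane, had 9.92 FPKM in T24 with OICR-9429 and 7.77 FPKM with DMSO, and 16.7 FPKM in UM-UC-3 with OICR-9429 and 8.02 FPKM with DMSO, and was called higher in UM-UC-3 (1.01). The call was lost with a pseudocount of 1 (0.97), with median-ratio scaling (0.92) and with upper-quartile scaling (0.95). The other isomerases and oxidases were not called in either line. Their log2 fold changes were -0.92 and -0.56 for PDIA5, -0.16 and 0.81 for the reductase DNAJC10 (ERdj5), -0.12 and 0.29 for the oxidase ERO1A, and 0.26 and 0.27 for ERO1B, the value of T24 standing before that of UM-UC-3. TXNDC5 was listed at 0.0777 to 0.178 FPKM, 10 to 22 reads, but 60.6% of its exon bases overlap a read-through gene on the same strand, so that its level is uncertain.

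In ERAD, every called change was toward higher levels with OICR-9429, 1 of 9 members at 1 FPKM or more in T24, which is near the 6.93% of all genes, and 5 of 9 in UM-UC-3, beside 14.0% of all genes. HERPUD1 (HERP), a membrane protein that gathers the ERAD ligase complex, had 55.4 FPKM in T24 with OICR-9429 and 21.1 FPKM with DMSO, and 86.6 FPKM in UM-UC-3 with OICR-9429 and 8.88 FPKM with DMSO. It was called in both lines, at 2.59-fold in T24 (95% counting interval of the log2 ratio 1.33 to 1.45) and 9.29-fold in UM-UC-3 (3.20 to 3.37), and the change in UM-UC-3 was the largest of the 40 members. Over both lines limma gave 2.29 ± 0.45 (SE) on the log2 scale with an adjusted p of 0.055.

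The ligase complex itself is built of SYVN1 (HRD1), the ubiquitin ligase, and SEL1L, its adaptor. SYVN1 had 17.9 FPKM in T24 with OICR-9429 and 11.8 FPKM with DMSO, and 36.3 FPKM in UM-UC-3 with OICR-9429 and 11.5 FPKM with DMSO. SEL1L had 16.0 FPKM in T24 with OICR-9429 and 10.1 FPKM with DMSO, and 27.7 FPKM in UM-UC-3 with OICR-9429 and 10.9 FPKM with DMSO. The pair had much the same level in every library but UM-UC-3 with OICR-9429, and both were called higher there (1.62 and 1.31) and not in T24 (0.58 and 0.64). DERL1, a derlin of the channel through which chains leave, had 10.2 FPKM in T24 with OICR-9429 and 8.66 FPKM with DMSO, and 33.6 FPKM in UM-UC-3 with OICR-9429 and 11.9 FPKM with DMSO. Its paralog DERL2 had 6.99 to 7.98 FPKM across the 4 libraries, and was not called (-0.12 for T24, 0.02 for UM-UC-3), while DERL1 was called higher in UM-UC-3 (1.46; 0.22 for T24). DERL3 had 1, 0, 6 and 3 reads in T24 with OICR-9429, T24 with DMSO, UM-UC-3 with OICR-9429 and UM-UC-3 with DMSO. By counting error alone, the count of 0 allows up to 0.0274 FPKM (3 reads). Of its exon bases, 77.0% overlap an antisense gene, and whether counting used strand is not given, so that its level is uncertain.

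EDEM1, which trims mannose from chains bound for disposal, had 14.9 FPKM in T24 with OICR-9429 and 11.4 FPKM with DMSO, and 13.9 FPKM in UM-UC-3 with OICR-9429 and 5.38 FPKM with DMSO. EDEM1 was called higher in UM-UC-3 (1.29) and came there to a level near that of T24 with OICR-9429, whose own change was 0.37. The related mannosidase genes EDEM2 (T24 -0.64, UM-UC-3 -0.11) and EDEM3 (T24 0.13, UM-UC-3 0.98) were not called. OS9, a lectin that delivers chains to SEL1L, had the second highest mean FPKM over the 4 libraries among the ERAD members. It stood at 21.9 FPKM in T24 with OICR-9429 and 19.6 FPKM with DMSO, and at 31.9 FPKM in UM-UC-3 with OICR-9429 and 30.7 FPKM with DMSO, and its log2 fold changes were 0.16 and 0.06.

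Of the sensors and transcription factors, XBP1 was the most abundant. XBP1, whose RNA is spliced by IRE1 to give the active factor, had 71.0 FPKM in T24 with OICR-9429 and 45.2 FPKM with DMSO, and 75.5 FPKM in UM-UC-3 with OICR-9429 and 17.2 FPKM with DMSO. The treated libraries of the lines were at close levels, and the DMSO libraries were not. XBP1 was called higher in UM-UC-3 (2.11) and not called in T24 (0.65). FPKM per gene does not separate spliced from unspliced XBP1, and splicing was not analysed here.

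ERN1, which encodes the sensor IRE1 alpha, had 4.29 FPKM in T24 with OICR-9429 and 1.88 FPKM with DMSO, and 9.37 FPKM in UM-UC-3 with OICR-9429 and 1.82 FPKM with DMSO. ERN1 was called higher in both lines (1.01 and 2.09), and its DMSO levels were nearly equal. The T24 call was lost with a pseudocount of 1 (0.88) and with an FPKM minimum of 5. ATF6, a sensor cut in the Golgi to release a transcription factor, had 13.7 FPKM in T24 with OICR-9429 and 15.1 FPKM with DMSO, and 28.1 FPKM in UM-UC-3 with OICR-9429 and 8.67 FPKM with DMSO. ATF6 was called higher in UM-UC-3 (1.64) and had -0.13 in T24. CREB3L2, a related membrane-bound factor that raises genes of secretory transport, had 2.66 FPKM in T24 with OICR-9429 and 6.88 FPKM with DMSO, and 1.79 FPKM in UM-UC-3 with OICR-9429 and 3.57 FPKM with DMSO. It was the only member of this role below its DMSO level in both lines, called lower in T24 (-1.22) and just under 2-fold in UM-UC-3 (-0.83 on the FPKM + 0.5 scale). The T24 call was lost with upper-quartile scaling (-0.98).

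In translocation and transport, 0 of 5 members were called in T24, where 6.93% of all genes were called higher and 13.5% lower. In UM-UC-3, 3 of the 5 were called higher, beside 14.0% of all genes. SEC61A1, the pore of the translocon, had 74.8 FPKM in T24 with OICR-9429 and 50.6 FPKM with DMSO, and 240 FPKM in UM-UC-3 with OICR-9429 and 103 FPKM with DMSO. Its small partner subunit SEC61B had 47.4 FPKM in T24 with OICR-9429 and 47.8 FPKM with DMSO, and 68.6 FPKM in UM-UC-3 with OICR-9429 and 58.4 FPKM with DMSO. SEC61A1 was called higher in UM-UC-3 (1.21; 0.56 in T24), and SEC61B was not called in either line (T24 -0.01, UM-UC-3 0.23). The ratio of SEC61A1 to SEC61B levels was 1.58 in T24 with OICR-9429 and 1.06 with DMSO, and 3.49 in UM-UC-3 with OICR-9429 and 1.77 with DMSO.

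KDELR3, a receptor that returns escaped ER proteins from the Golgi, had 12.3 FPKM in T24 with OICR-9429 and 9.79 FPKM with DMSO, and 50.5 FPKM in UM-UC-3 with OICR-9429 and 8.29 FPKM with DMSO. Its log2 fold change was 0.31 for T24 and 2.54 for UM-UC-3, the widest gap between the lines among the members. KDELR2 had 58.6 FPKM in T24 with OICR-9429 and 51.7 FPKM with DMSO, and 62.7 FPKM in UM-UC-3 with OICR-9429 and 31.2 FPKM with DMSO, which was just under a call in UM-UC-3 (1.99-fold). SEC24D, a cargo-binding subunit of the COPII coat, had 7.49 FPKM in T24 with OICR-9429 and 5.84 FPKM with DMSO, and 12.2 FPKM in UM-UC-3 with OICR-9429 and 4.84 FPKM with DMSO, and was called higher in UM-UC-3 (1.25). The receptor KDELR1, which is no member, was not called, with 88.6 FPKM in T24 with OICR-9429 and 82.3 FPKM with DMSO, and 108 FPKM in UM-UC-3 with OICR-9429 and 123 FPKM with DMSO.

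Other ER genes were taken from 6 lists, of which 169 of 170 genes were in the tables. In T24, 6 of 159 at 1 FPKM or more were called higher (3.77%) and 6 lower (3.77%), and in UM-UC-3, 35 of 161 were called higher (21.7%) and 3 lower (1.86%). With median-ratio scaling, 9 other ER genes were called higher in T24 and 4 lower, and over all genes 1084 and 1466. With upper-quartile scaling, 13 other ER genes were called higher there and 4 lower, and over all genes 1443 and 1201. Without scaling, 876 of all genes (6.93%) were called higher in T24 and 1709 (13.5%) lower. In UM-UC-3, 14.0% of all genes were called higher and 12.1% lower. Like the members, the other ER genes were more often called higher in UM-UC-3 than all genes, by a smaller margin. They were less often called lower than all genes in either line. Their median log2 fold change was -0.04 for T24 and 0.29 for UM-UC-3. In limma, 2 of 161 rose, SEC31A, a COPII coat subunit (1.48 ± 0.25, SE; adjusted p 0.039), and PPP1R15A (GADD34), which directs a phosphatase to eIF2 alpha (1.80 ± 0.28, SE; adjusted p 0.033). None fell at the adjusted threshold. At an unadjusted p under 0.05, limma counted 26 of the 161 higher with OICR-9429 and 18 lower, where 9.37% of all genes were higher and 13.2% lower.

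The PERK branch and other stress sensors had 4 of 18 genes called higher in T24, 9 of 18 called higher in UM-UC-3, and none lower, where 6.93% and 14.0% of all genes were called higher. The median of this list was 0.0 for T24 and 0.86 for UM-UC-3. EIF2AK3, the gene of PERK, had 7.97 FPKM in T24 with OICR-9429 and 2.88 FPKM with DMSO, and 20.2 FPKM in UM-UC-3 with OICR-9429 and 1.87 FPKM with DMSO. TRIB3, a pseudokinase induced by ATF4, had 124 FPKM in T24 with OICR-9429 and 43.0 FPKM with DMSO, and 445 FPKM in UM-UC-3 with OICR-9429 and 22.5 FPKM with DMSO. DDIT3 (CHOP), a transcription factor of the same branch, had 27.5 FPKM in T24 with OICR-9429 and 10.4 FPKM with DMSO, and 112 FPKM in UM-UC-3 with OICR-9429 and 6.13 FPKM with DMSO. These genes were called higher in both lines, as PPP1R15A was (T24 1.36, UM-UC-3 2.23). CHAC1 of the same list was called higher in UM-UC-3 (4.22) but lay below its DMSO level in T24 (-0.71, not called). ATF4 itself, the gene with the highest mean FPKM over the 4 libraries in the list, had 519 FPKM in T24 with OICR-9429 and 288 FPKM with DMSO, and 445 FPKM in UM-UC-3 with OICR-9429 and 169 FPKM with DMSO; it was called higher in UM-UC-3 (1.39) and not in T24 (0.85).

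The list of COPII, retrieval and ER exit had 2 of 29 genes called higher in T24, which is near the 6.93% of all genes. In UM-UC-3, 10 of 29 were called higher, beside 14.0% of all genes. SEC24A had 17.1 FPKM in T24 with OICR-9429 and 6.88 FPKM with DMSO, and 33.8 FPKM in UM-UC-3 with OICR-9429 and 6.52 FPKM with DMSO. SEC31A had 37.2 FPKM in T24 with OICR-9429 and 15.4 FPKM with DMSO, and 46.0 FPKM in UM-UC-3 with OICR-9429 and 13.7 FPKM with DMSO. Both coat genes were called higher in both lines, whereas the member SEC24D was called in UM-UC-3 alone. SURF4, a cargo receptor with the highest mean FPKM over the 4 libraries in this list, had 124 FPKM in T24 with OICR-9429 and 97.9 FPKM with DMSO, and 205 FPKM in UM-UC-3 with OICR-9429 and 117 FPKM with DMSO, and was not called.

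Of 32 other ERAD factors, 2 were called lower in T24 and none higher, while 7 were called higher in UM-UC-3 and 1 lower. The shares over all genes were 13.5% lower and 6.93% higher for T24, and 14.0% higher and 12.1% lower for UM-UC-3. Only the share of these factors called higher in UM-UC-3 lay above that of all genes. ERLIN1, a membrane scaffold of ERAD, had 7.74 FPKM in T24 with OICR-9429 and 19.6 FPKM with DMSO, and 15.6 FPKM in UM-UC-3 with OICR-9429 and 37.5 FPKM with DMSO. It was called lower in both lines, the opposite direction to that of HERPUD1. The highest mean FPKM over the 4 libraries in the list were those of VCP, the ATPase that pulls chains out of the membrane, and BAG6, a chaperone that keeps such chains soluble. VCP had 79.4 FPKM in T24 with OICR-9429 and 110 FPKM with DMSO, and 82.9 FPKM in UM-UC-3 with OICR-9429 and 154 FPKM with DMSO. BAG6 had 92.0 FPKM in T24 with OICR-9429 and 77.5 FPKM with DMSO, and 102 FPKM in UM-UC-3 with OICR-9429 and 74.8 FPKM with DMSO. Neither was called.

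Of 39 other folding factors, 33 in T24 and 34 in UM-UC-3 were at 1 FPKM or more. In T24, 2 were called lower, beside 13.5% of all genes, and in UM-UC-3, 4 were called higher, beside 14.0%. CALU (calumenin), a calcium-binding protein, had 88.0 FPKM in T24 with OICR-9429 and 74.6 FPKM with DMSO, and 143 FPKM in UM-UC-3 with OICR-9429 and 78.7 FPKM with DMSO. SELENOF, a selenoprotein that binds a glucosyltransferase of quality control, had 60.7 FPKM in T24 with OICR-9429 and 69.9 FPKM with DMSO, and 86.1 FPKM in UM-UC-3 with OICR-9429 and 99.6 FPKM with DMSO. Neither of these folding factors, the highest by mean FPKM over the 4 libraries, was called.

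Of 22 genes of signal recognition, translocon and signal peptidase, 1 was called lower in T24, beside 13.5% of all genes. In UM-UC-3, 2 were called higher, beside 14.0% of all genes. Those called higher were SRPRA (1.62) and SRP54 (1.58), where the member SEC61A1 had 1.21. The median of this list was 0.02 for T24 and -0.05 for UM-UC-3. SRP9, a subunit of the signal recognition particle, was called lower in T24, with 101 FPKM with OICR-9429 and 207 FPKM with DMSO, and had 79.6 FPKM in UM-UC-3 with OICR-9429 and 84.3 FPKM with DMSO. TRAM1, a membrane protein beside the channel, was not called, with 94.4 FPKM in T24 with OICR-9429 and 66.5 FPKM with DMSO, and 129 FPKM in UM-UC-3 with OICR-9429 and 79.3 FPKM with DMSO.

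Of 26 genes of N-glycosylation and glucose trimming, 1 was called lower in T24, while 3 were called higher in UM-UC-3 and 2 lower. The shares over all genes were larger each time, at 13.5% lower for T24, and 14.0% higher and 12.1% lower for UM-UC-3. The median of this list was -0.19 for T24, where that of all genes was -0.15, and -0.27 for UM-UC-3, where it was 0.09. DAD1, a subunit of the oligosaccharyltransferase, had 170 FPKM in T24 with OICR-9429 and 124 FPKM with DMSO, and 231 FPKM in UM-UC-3 with OICR-9429 and 147 FPKM with DMSO, and was not called. GANAB, a subunit of glucosidase II, was not called either, with 88.0 FPKM in T24 with OICR-9429 and 141 FPKM with DMSO, and 130 FPKM in UM-UC-3 with OICR-9429 and 179 FPKM with DMSO. ALG6, a glucosyltransferase of this list, was called lower in both lines, with 1.94 FPKM in T24 with OICR-9429 and 6.89 FPKM with DMSO, and 1.83 FPKM in UM-UC-3 with OICR-9429 and 5.56 FPKM with DMSO. RPN2, of the same enzyme as DAD1, had 97.5 FPKM in T24 with OICR-9429 and 167 FPKM with DMSO, and 64.2 FPKM in UM-UC-3 with OICR-9429 and 156 FPKM with DMSO, and was called lower in UM-UC-3 (-1.28).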

How the data were processed

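RNA was measured in 4 libraries, 1 per cell line and condition. The deposited values are FPKM, 1 table per library, made by the authors with bcl2fastq 2.19.1, HISAT2 2.1.0, HTSeq 0.6.1 and build hg19 as the submitters' processing notes name them; the strand setting of counting is not given in the sources used here. The study's methods name DEGseq, which compares reads of 2 libraries and not conditions, so a size rule was used within a line: at least 2-fold in FPKM + 0.5, and 1 FPKM or more in either library. No p-value is given within a line. Over both lines, limma 3.58.1 (lmFit, eBayes with trend, R 4.3.3) was fitted to log2(FPKM + 0.5) with line as a block, for genes at 1 FPKM or more in at least 2 libraries, with Benjamini-Hochberg adjustment over all of them; 1 residual degree of freedom per gene was moderated across genes. Treated and DMSO libraries were paired by their line, as the labels give it.

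FPKM multiplied by the merged exon length in GENCODE 29 and a library total gave whole reads (tolerance 1e-06) for 29029 genes (92.7%) and 37 of the 40 members, not for HSP90B1, MANF and DNAJC10, although that annotation is of a later build than hg19. These reads gave exact Poisson intervals of levels and exact binomial intervals of ratios at 95%, which cover counting error only. Promoter windows came from RefSeq (GRCh38.p14). The scripts (Python 3.11.15) were tested on simulated data. Alternatives were other pseudocounts, FPKM minimums, fold thresholds, scalings, no line block and no trend. Members and lists were chosen with earlier results of these data known. Named with every library's FPKM were members called in a line or past limma, the 2 of highest mean FPKM of each role, and XBP1, ATF6 and ERN1; of each other list, the 2 genes of highest mean FPKM and the 2 with the largest mean change among those called alike in both lines or past limma. Other names (KDELR2, EIF2AK3, PPP1R15A, CHAC1, RPN2, SRPRA, SRP54, and the ratios between members) were chosen after their values were seen.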

Additional observations from a re-analysis of the deposited data

How the results depend on the processing

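The size rule depended on its threshold. At 1.5-fold, 10 members were called lower and 7 higher in T24, 8 lower and 6 higher in both lines, and of the other ER genes 31 were lower and 18 higher in T24, 18 lower and 61 higher in UM-UC-3, and 12 lower and 15 higher in both. At 4-fold, 4 members and 10 other ER genes were called higher in UM-UC-3, and 0 members and 0 other ER genes in every other count. Of all genes, 316 were called higher in UM-UC-3 at 4-fold, and 22 to 421 were called in the other counts. With upper-quartile scaling, 3 members were called lower in T24, where 1201 of all genes were. Of the other ER genes, 13 were then higher in T24 and 12 in both lines, where 1443 and 416 of all genes were. The T24 median of the members was 0.31 with upper-quartile scaling and 0.15 with median-ratio scaling. These scalings move the T24 libraries apart (log2 factors of -0.19 and -0.09 with OICR-9429 against 0.09 and 0.02 with DMSO), and changes relative to the median of all genes were 0.19 in T24 and 0.81 in UM-UC-3. Counting all 40 members gave a UM-UC-3 median of 0.55.

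The limma counts moved too, over all genes as over the members. Of all genes, 391 fell and 102 rose in the main fit, 666 and 557 with upper-quartile scaling, and 558 and 217 with median-ratio scaling. With a pseudocount of 0.1, 500 fell and 170 rose, and with an FPKM minimum of 5, 427 fell and 124 rose. Without a trend, 323 fell and 56 rose, and with no FPKM minimum or without the cell line block 0 did either. Of the members, 3 fell and 8 rose with upper-quartile scaling, 3 fell and 2 rose with median-ratio scaling, with a pseudocount of 0.1 and with an FPKM minimum of 5, and 0 fell with no FPKM minimum (16 at an unadjusted p under 0.05, in either direction), without the cell line block (8) or without a trend (16). Of the other ER genes, 2 fell and 15 rose with upper-quartile scaling, 2 fell and 9 rose with median-ratio scaling, 1 fell and 4 rose with a pseudocount of 0.1, 2 fell with an FPKM minimum of 5, and 0 rose with no minimum (31 unadjusted), without the block (15) or without a trend (29). PDIA4 was past the threshold in every fit that called a member. A pseudocount of 1 moved no count by more than 1.5 times, and no count or median changed sign. Leaving out a line leaves no residual degrees of freedom, so each line's own values stand in for it. The fit with the line as a block is the paired one, since each line gave 1 treated and 1 DMSO library.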
